A study of Mus musculus with 12 samples.

Results

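The 6 lysate libraries of the series were described on their own. They were taken by their label as lysate, and make up 6 of the 12 libraries deposited. Each came from the liver of a different male C57BL/6N mouse, 9 to 12 weeks old, killed 3 h into the postprandial state that followed an overnight fast. The lysate is the supernatant left when 1 g of homogenised liver had been spun 3 times at low speed, a step that removes nuclei and keeps cytoplasmic membranes and mitochondria. Poly(A) RNA was captured and 250 ng went into each directional library. All 6 libraries share this treatment and there is no reference condition, so the text gives levels and spreads and makes no test.

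The hepatocyte, the main cell of the liver, secretes most plasma proteins and clears nutrients, ammonia and foreign compounds. After a meal insulin raises mRNAs of glucose use and lipid synthesis, and during a fast glucagon and the fatty acid receptor PPARalpha raise those of fatty acid oxidation and ketone production. In male mice the pulses of growth hormone also keep up major urinary proteins (MUPs), small pheromone carriers that the liver secretes and the kidney excretes.

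Total estimated counts per library lay between 7400155 and 12023984, with a median of 7938314. Levels are given as TPM, a transcript's share of all transcripts scaled by its length, and the spread between libraries as the coefficient of variation (CV) of library-scaled CPM, a gene's share of all counts. Across pairs of libraries, counts differed by at least 11.3 times the sampling noise (chi-square per degree of freedom), so none was the same library deposited again. This leaves a second library from the same lysate untested, but the labels give 1 mouse for each. In bulk RNA, fewer cells of a type and less RNA per cell cannot be told apart.

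Some libraries stood apart in ways that touch the results below. Library 5 held 6.70% of its TPM in a list of 22 acute phase genes, the plasma proteins of inflammation, against 1.38% to 1.64% in the other 5 libraries. All 16 markers of Kupffer cells and macrophages, the resident phagocytes of the liver, were also highest in library 5, against 18.1% of all genes. Their summed share was 0.0932% there against 0.0234% to 0.0372%. Digestive enzyme mRNAs of pancreatic acinar cells, 20 genes, took 0.380% of TPM in library 4 and 0.445% in library 5. They took 0.114% in library 1 and 0.0915% in library 2, but 0.00753% in library 3 and 0.00521% in library 6. Of all 7860 genes with a mean of at least 10 CPM, 482 (6.13%) had 1 library apart from the other 5 by Dixon's gap rule, a rule that chance alone meets in about 1 of 20 genes. Library 5 was the one apart for 183 of them and library 2 for 113. Library 3 was highest for 21 of 24 genes of cholesterol synthesis, against 12.6% of all genes.

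The male label and the strain were checked first. Ddx3y, an RNA helicase gene of the Y chromosome, had between 34.3 and 44.8 TPM, and Eif2s3y, a Y-linked translation factor gene, between 23.6 and 35.6 TPM. Cyp2b13, Cyp3a41a, Cyp3a41b and Cyp3a16, which are expressed in female mouse liver, were listed at 0 in all 6 libraries. They belong to a list of 20 female-biased genes, of which 8 had a mean of at least 1 TPM, with a summed share of 0.00733% to 0.0256%. Nnt, the mitochondrial transhydrogenase gene that is partly deleted in C57BL/6J but not in C57BL/6N mice, had 40.2 ± 9.65 TPM (SD, n = 6) under its main identifier, with a range of 33.2 to 58.2. Hnf4a, a transcription factor that maintains hepatocyte identity, had 367 ± 34.4 TPM.

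Promoters of genes that mark the main patterns are shown from RefSeq on build GRCm38.p6, each covering 250 bases before and 50 bases from the annotated start, written 5′ to 3′. Alb (albumin; chr5:90460620-90460919, plus strand) and Mup7 (a MUP; chr4:60070426-60070725, minus strand) stand for the most abundant mRNAs, and capitals mark CCAAT or its complement ATTGG.
Alb: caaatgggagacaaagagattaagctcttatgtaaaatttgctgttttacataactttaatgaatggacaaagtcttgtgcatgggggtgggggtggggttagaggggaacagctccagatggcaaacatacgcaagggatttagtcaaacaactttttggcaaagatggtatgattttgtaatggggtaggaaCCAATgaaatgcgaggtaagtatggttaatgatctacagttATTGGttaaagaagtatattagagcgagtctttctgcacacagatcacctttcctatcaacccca
Mup7: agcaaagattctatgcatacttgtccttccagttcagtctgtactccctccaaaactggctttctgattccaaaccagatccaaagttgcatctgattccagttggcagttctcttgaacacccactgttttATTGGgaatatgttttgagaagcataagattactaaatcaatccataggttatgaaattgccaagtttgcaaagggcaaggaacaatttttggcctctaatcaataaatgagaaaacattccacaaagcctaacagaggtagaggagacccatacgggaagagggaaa
Both windows are 40% G or C. Hnrnpk (an RNA-binding protein of mRNA processing; chr13:58402068-58402367, minus strand) is the gene of lowest spread among those with at least 100 TPM, and its window is 70.7% G or C, with CCAAT in capitals.
Hnrnpk: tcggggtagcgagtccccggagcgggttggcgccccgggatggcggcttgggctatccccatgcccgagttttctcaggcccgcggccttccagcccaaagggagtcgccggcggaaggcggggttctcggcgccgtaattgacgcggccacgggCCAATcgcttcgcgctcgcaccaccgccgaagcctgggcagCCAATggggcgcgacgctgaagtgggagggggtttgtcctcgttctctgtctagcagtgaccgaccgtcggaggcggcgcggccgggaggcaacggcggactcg
The observed number of CpG over that expected from base content was 0.272 for Alb, 0.0834 for Mup7 and 1.08 for Hnrnpk, and its median over all 27025 promoters in the table was 0.389. Hmgcs1 (the cytosolic synthase that feeds the mevalonate pathway; chr13:119690101-119690400, plus strand) and Idi1 (an isomerase of that pathway; chr13:8885356-8885655, plus strand) were sterol synthesis genes highest in library 3. Capitals mark the CCAAT box and the GC box GGGCGG on either strand, and in Hmgcs1 also a sterol response element, TCACNCCAC.
Hmgcs1: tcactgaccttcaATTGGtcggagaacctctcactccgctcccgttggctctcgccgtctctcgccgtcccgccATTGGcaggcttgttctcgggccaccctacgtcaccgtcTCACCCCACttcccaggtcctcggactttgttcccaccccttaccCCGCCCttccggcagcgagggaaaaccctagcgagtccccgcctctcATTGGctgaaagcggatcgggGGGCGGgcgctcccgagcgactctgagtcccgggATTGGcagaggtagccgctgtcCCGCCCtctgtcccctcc
Idi1: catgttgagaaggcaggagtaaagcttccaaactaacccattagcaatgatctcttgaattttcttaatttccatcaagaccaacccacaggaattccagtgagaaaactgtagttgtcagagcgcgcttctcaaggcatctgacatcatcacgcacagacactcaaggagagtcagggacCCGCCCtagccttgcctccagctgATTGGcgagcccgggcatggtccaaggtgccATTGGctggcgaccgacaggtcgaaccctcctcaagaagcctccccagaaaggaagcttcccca
Mt1 (metallothionein, a metal-binding protein; chr8:94178839-94179138, plus strand) was highest in library 5. Capitals mark TGCACNC or TGCGCNC, the core of the metal response element.
Mt1: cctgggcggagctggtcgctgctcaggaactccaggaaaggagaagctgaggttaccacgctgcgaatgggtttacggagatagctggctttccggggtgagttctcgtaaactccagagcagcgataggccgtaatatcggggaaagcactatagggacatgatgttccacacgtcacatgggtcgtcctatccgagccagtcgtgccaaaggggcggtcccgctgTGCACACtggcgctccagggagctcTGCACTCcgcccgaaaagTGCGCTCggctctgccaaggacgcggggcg
Pnlip (pancreatic lipase; chr19:58670115-58670414, plus strand) stands for the acinar mRNAs, with TATAAA in capitals.
Pnlip: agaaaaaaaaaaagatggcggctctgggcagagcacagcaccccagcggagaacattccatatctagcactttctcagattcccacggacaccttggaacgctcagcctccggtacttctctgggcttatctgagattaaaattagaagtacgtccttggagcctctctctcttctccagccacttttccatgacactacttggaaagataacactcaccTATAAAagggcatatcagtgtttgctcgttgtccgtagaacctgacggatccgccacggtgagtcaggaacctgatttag
On both strands, CCAAT was found in 37.9% of all promoters, GGGCGG in 35.9%, TCACNCCAC in 1.22% and the metal core in 25.6%. TATAAA on the plus strand 40 to 15 bases before the start was found in 2.22%. These motif matches describe the letters only.

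Of 35498 genes in the table, 10373 had at least 1 TPM in every library, and 10182 of those were protein coding. Single libraries had between 11275 and 11747 such genes, while 16600 genes were at 0 throughout. By mean TPM, 3559 genes with a signal lay below 0.1 and held 0.0138% of the mRNA, and 3859 lay between 0.1 and 1 and held 0.145%. Genes of 1 to 10 TPM numbered 5186 and held 2.27%. Those of 10 to 100 TPM numbered 5170 and held 16.02 ± 0.891%. The 999 genes of 100 to 1000 TPM held 27.2 ± 0.709%, the 115 genes of 1000 to 10000 TPM held 35.1 ± 1.497%, and the 10 genes above that held 19.2 ± 2.66% (SD, n = 6).

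**Figure D1:**
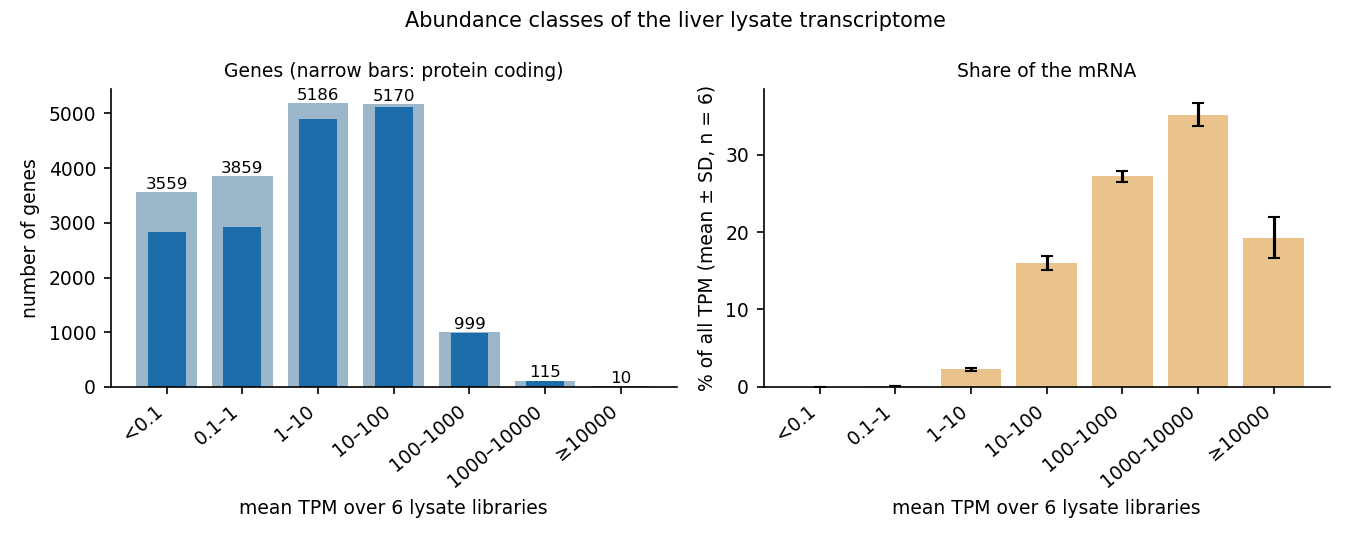
Number of genes (left; wide bars all genes, narrow bars protein coding) and share of all TPM (right; mean ± SD, n = 6 lysate libraries) by class of mean TPM. Most genes lie between 1 and 100 TPM, and the classes from 1000 TPM upward hold 35.1% and 19.2% of TPM in 115 and 10 genes.

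The mRNA was concentrated in few genes. In all, 50% of the mean TPM lay in 89 genes and 90% in 2515, and within single libraries 50% was reached with 68 genes in library 2 and 99 genes in library 5. The 10 most abundant genes held 21.98% of TPM in library 2 and 14.7% in library 5, the highest and the lowest. Coding sequences were longest at 1 to 10 TPM. Their median length was 1188 bases below 0.1 TPM, 1257 bases at 0.1 to 1 TPM, 1581 bases for protein coding genes of 1 to 10 TPM, 1254 bases at 10 to 100 TPM, 897 bases at 100 to 1000 TPM and 930 bases above.

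Mup22, listed as Gm21320, had the highest mean, 36440 ± 4351 TPM (SD, n = 6). Mup7 followed with 40725, 44158, 26712, 34206, 16857 and 13903 TPM in libraries 1 to 6, a mean of 29427 ± 12441. Alb, the carrier that makes up most plasma protein, had 27677, 26924, 33454, 29142, 15628 and 40332 TPM in the same order, a mean of 28860 ± 8161. Alb was therefore lowest in library 5 and highest in library 6, and Mup7 was lowest in library 6. Apoa2, a protein of high-density lipoprotein, had 17117 ± 1855 TPM, and Apoe, the ligand for remnant uptake, 15105 ± 1604 TPM. Mup3, Mup19 and Mup14 followed with means of 12680, 12068 and 10295 TPM. Serpina1e, an antiprotease of the alpha-1-antitrypsin family, had 9845 ± 2207 TPM and Trf, the iron carrier transferrin, 9688 ± 2246 TPM.

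The order of the top genes depended on length scaling. The processed pseudogenes Gm12895 and Gm12896 had ranks 5 and 6 by TPM with 15207 ± 2387 TPM each, yet ranked 153 and 154 by count with 764 CPM. Each is annotated with 226 bases, and the ratio of their counts to TPM gave an effective length of 67.5 bases. The mean fragment length, estimated from genes with a single transcript, was 187 to 191 bases. mt-Atp8, an ATP synthase subunit of the mitochondrial genome, showed the same feature, with rank 16 by TPM and 388 by count at an effective length of 51.7 bases. The 12 genes of at least 1 TPM with an effective length under 100 bases held 3.92% of TPM and 0.187% of counts. By count Alb came first with 3.95% of the total. Lars2, the mitochondrial leucyl-tRNA synthetase, stood at rank 25 by TPM but rank 4 by count, with 15814 CPM. Its TPM ranged narrowly from 5270 to 6638. Whether all counts listed under Lars2 came from its mRNA was not tested. Apob, the very long scaffold protein of secreted lipoprotein, was at rank 88 by TPM and rank 7 by count.

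**Figure D2:**
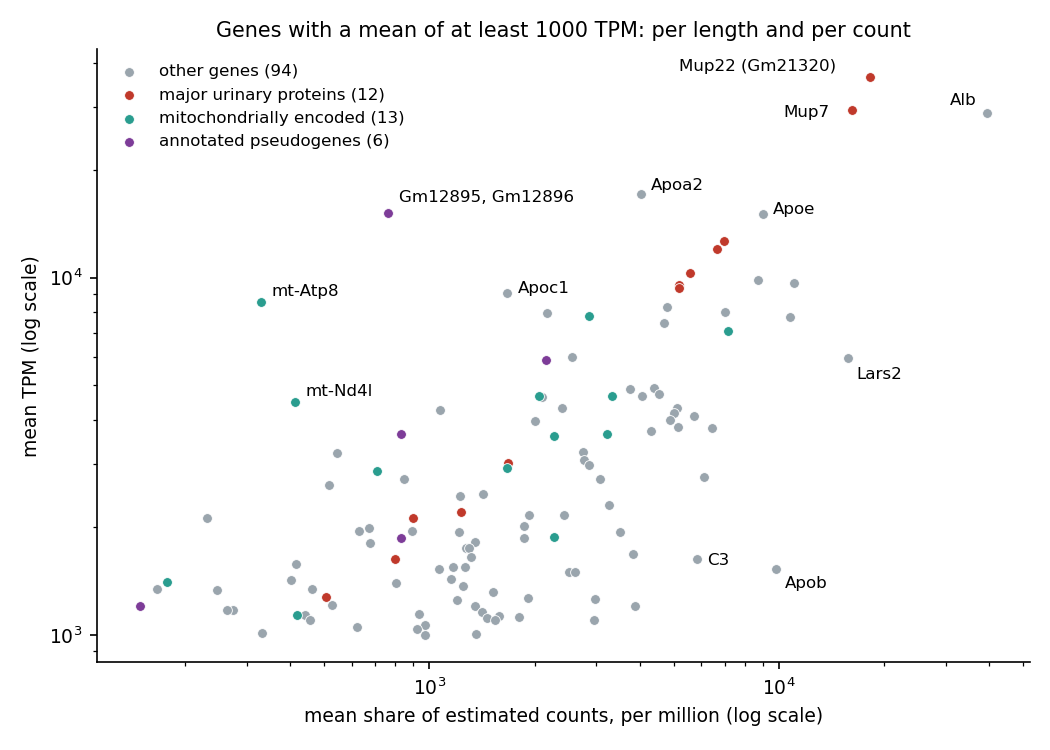
Mean TPM (log scale) against the mean CPM (log scale) for the 125 genes of at least 1000 TPM, 1 point per gene, coloured by kind. Gm12895, Gm12896 and mt-Atp8 lie high at a low count, and Lars2, C3 and Apob lie low at a high count.

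Near-identical copies limit several of these values. Of the 125 genes with at least 1000 TPM, 30 shared over 50% of their 31-base words with another annotated gene, and these 30 held 22.9% of TPM. All 831 words of Mup22 and 90.02% of those of Mup7 were shared with other genes, so the split between MUP genes is uncertain. Alb, Apoa2 and Apoe shared none. Some mitochondrial genes have near-identical nuclear copies, which were listed beside them. mt-Co2, a cytochrome oxidase subunit, was listed at 1134 ± 277 TPM and its copy Gm28661 at 5865 ± 687 TPM, a sum of 6999 ± 770 TPM. mt-Co3 had 4657 ± 988 TPM with 1869 ± 625 TPM in Gm28437, and mt-Nd3, a subunit of complex I, 1409 ± 187 TPM with 1202 ± 231 TPM in Gm28438.

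Secreted proteins took the largest share of any function described. The 144 genes in 7 lists of secreted proteins held 33.8 ± 1.55% of TPM, with a narrow range of 32.0% to 35.7%. Within them the MUPs ranged from 8.88% in library 5 and 9.38% in library 6 to 16.7% in library 2 and 16.8% in library 1, with 12.0% in library 3 and 15.4% in library 4. The 22 plasma carriers held least in library 1, at 6.39%, and most in library 6, at 8.55%. Of 21 carriers with at least 1 CPM, 11 were lowest in library 1 by TMM-scaled CPM, against 16.7% of all genes. Of these 21, 8, 7 and 6 were highest in libraries 5, 2 and 6, against 18.1, 19.8 and 18.9% of all genes. Among the carriers Ttr, the thyroid hormone carrier, had 4892 ± 788 TPM, Rbp4, the retinol carrier, 4320 ± 706 TPM, and Gc, the vitamin D carrier, 3709 ± 315 TPM. Apolipoproteins and lipoprotein assembly genes held 6.18 ± 0.513%. In that list Apoc1, an inhibitor of lipoprotein uptake, had 9031 ± 1310 TPM and Apoa1, the scaffold of high-density lipoprotein, 7482 ± 963 TPM. Apoc3, an inhibitor of triglyceride clearance, varied less, at 4274 ± 185 TPM. Serpins held 4.23 ± 0.404%, coagulation genes 1.06 ± 0.1197% and complement genes 0.844 ± 0.135%. Fga and Fgg, chains of fibrinogen, had 2312 ± 239 and 2165 ± 194 TPM. Chromosome 4, home of the MUP cluster, held 20.2 ± 3.11% of TPM in 6.43% of the genes with at least 1 TPM.

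Mitochondrial and ribosomal mRNAs are mostly short, and their shares depended on length scaling. The 13 mRNAs of the mitochondrial genome held 5.47 ± 0.694% of TPM, from 4.39% in library 1 to 6.33% in library 2. This sum leaves out the near-identical copies Gm28661, Gm29216, Gm28437 and Gm28438, listed at 5865, 3658, 1869 and 1202 TPM. Nuclear genes of oxidative phosphorylation held 2.48 ± 0.118% and cytosolic ribosomal protein genes 4.06 ± 0.215%. By estimated counts the share of mitochondrially encoded mRNAs was 2.69%, the share of cytosolic ribosomal proteins 1.47% and the share of nuclear oxidative phosphorylation 1.08%. The share of amino acid catabolism was then 3.18% and the share of cytochromes P450 2.02%, so that both ribosomal and oxidative phosphorylation genes ranked below these enzymes by count. Which library was highest for ribosomal protein genes depended on scaling. Of 83 such genes, 70 were highest in library 2 by TMM-scaled CPM, 53 by CPM on library totals and 22 by TPM. Of all genes, 19.8% were highest in library 2 by TMM-scaled CPM. Eef1a1, the elongation factor that delivers aminoacyl-tRNA to the ribosome, had 4304 ± 283 TPM.

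Metabolic enzymes differed in their spread. The median CV of list members was 10.03% for the urea cycle and 12.2% for glycolysis, but 16.1% for amino acid catabolism, 21.2% for bile acid genes, 26.1% for conjugation enzymes and 29.03% for cytochromes P450, against 11.1% for all genes. The urea cycle list, 13 genes of ammonia disposal, held 0.785 ± 0.0325% of TPM. Ass1, which makes argininosuccinate, had 2735 ± 309 TPM, Arg1, which releases urea, 1250 ± 70.3 TPM, and Cps1, the entry enzyme, 670 ± 62.4 TPM. Amino acid catabolism held 2.24 ± 0.279%, led by Bhmt, a methyltransferase of homocysteine, with 3801 ± 1114 TPM, and Mat1a, which makes S-adenosylmethionine, with 2758 ± 1343 TPM. By TPM both were lowest in library 2 and highest in library 5, as was the list share. By TMM-scaled CPM, another scale, 24 of the 40 members were lowest in library 5 and 15 were highest in library 2. Members were not counted by TPM, so the 2 genes and the members are not compared on 1 scale. Of all genes, 24.3% were lowest in library 5 and 19.8% highest in library 2. Glycolysis held 0.866 ± 0.0998%. Cytochromes P450 held 1.54 ± 0.180%, led by Cyp2e1, which oxidises ethanol and ketones, at 4169 ± 610 TPM. Conjugation enzymes held 1.44 ± 0.313%, led by Gstp1, a glutathione transferase that is higher in male mice, at 6011 ± 1397 TPM. Bile acid synthesis and transport held 0.762 ± 0.0385%.

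Chosen markers of other liver cells held a small part of TPM, which does not measure the RNA share of those cells. Clec4g, a lectin of sinusoidal endothelium, had 29.6 ± 3.84 TPM and Dcn, a matrix protein of stellate cells and fibroblasts, 67.6 ± 11.2 TPM. Krt19, a keratin of bile ducts, had at most 1.01 TPM and Cd3e, of the T cell receptor complex, at most 0.715 TPM. Summed shares were 0.0190 ± 0.00293% for 18 endothelial markers, 0.0221 ± 0.00271% for 18 stellate and fibroblast markers and 0.00414 ± 0.000237% for 12 bile duct markers. Hbb-bs, a haemoglobin chain of red cells, had between 148 TPM in library 5 and 384 TPM in library 6.

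Between libraries most genes were tight. The median CV of the 7860 genes with a mean of at least 10 CPM was 11.1%, with quartiles of 7.96% and 15.9%. A CV above 50% was found for 188 genes (2.39%) and above 100% for 37, while 473 genes (6.02%) were under 5%. Of genes of 1000 to 10000 TPM, 12 of 115 (10.4%) were above 50%, and of genes of 10 to 100 TPM, 104 of 4910 (2.12%). Hnrnpk had the lowest CV of genes with at least 100 TPM, 1.59% on the CPM scale. Its TPM values were 161, 148, 165, 171, 173 and 186 in libraries 1 to 6. These spread more, at 167 ± 12.7 TPM, so such ranks hold for the CPM scale. Rnf10, a ubiquitin ligase gene, and Rhoa, a small GTPase of the actin skeleton, followed with CVs of 2.23% and 2.25%. Among genes of 10 to 100 TPM the lowest were Ppp1r16a, a phosphatase regulator, at 1.46% and Polr2e, a subunit of RNA polymerases, at 1.85%. Arg1 was the steadiest of the urea cycle genes on the CPM scale, at 2.72%, with 1250 ± 70.3 TPM. The 473 low-spread genes included 471 protein coding ones, and 379 of these had a promoter in the table. GGGCGG was found in 72.3% of those windows, and their median CpG ratio was 0.863. Protein coding genes of 10 to 100 TPM were close to this, with GGGCGG in 67.5% and a median ratio of 0.802.

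**Figure D3:**
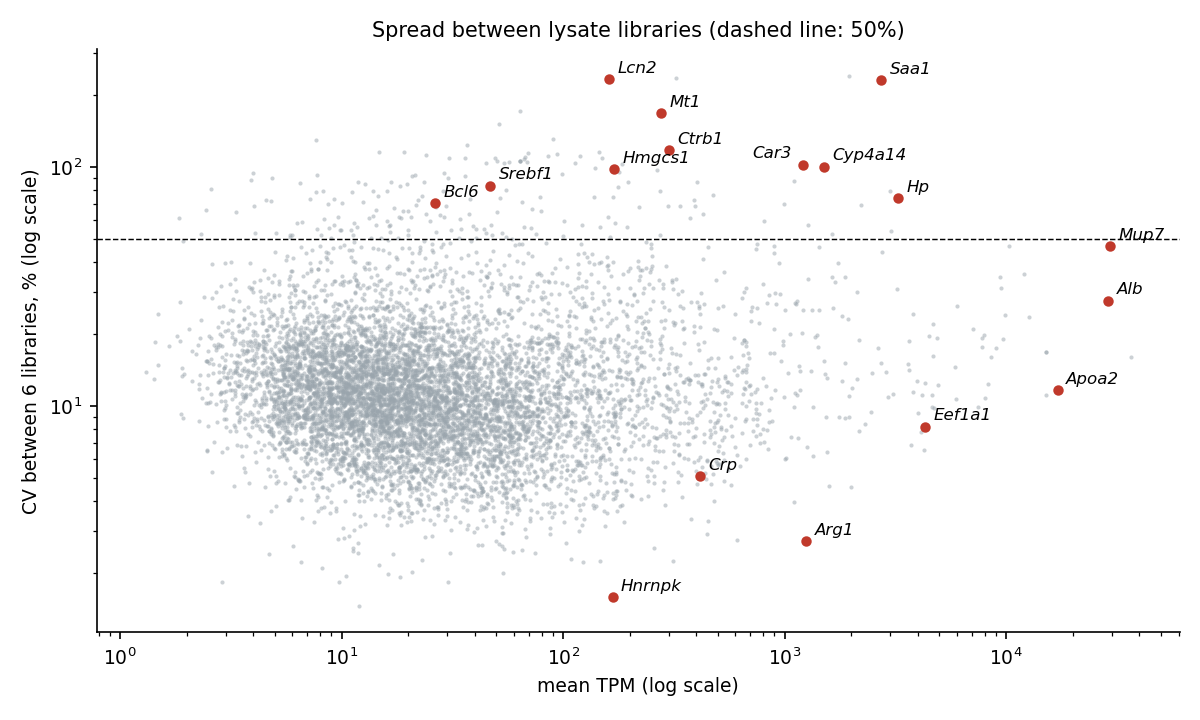
CV between the 6 lysate libraries (log scale) against mean TPM (log scale) for the 7860 genes with a mean of at least 10 CPM, 1 point per gene, with selected genes in red and a dashed line at 50%. Most points lie near 10%, and the acute phase genes Saa1 and Lcn2 stand at the top.

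Library 5 was alone in its acute phase mRNAs. Saa1, serum amyloid A, had 15694 TPM in library 5 against 124, 136, 105, 272 and 56.9 TPM in libraries 1, 2, 3, 4 and 6. Saa2 had 11571 TPM against 12.1 to 63.2 TPM, and Orm2, an orosomucoid, 1876 TPM against 9.95 to 15.98 TPM. Their CVs were 231% for Saa1, 241% for Saa2 and 235.5% for Orm2. Lcn2, an iron-siderophore binding protein, had 934 TPM in library 5 and 4.36 to 14.2 TPM elsewhere. Hp and Hpx, which bind free haemoglobin and haem, had 8196 and 8118 TPM in library 5, against at most 3544 and 2310 TPM. Fgl1, a fibrinogen-like protein of liver, had 1125 TPM against 118 to 380 TPM. Mt1 had 1240 TPM against 24.8 to 146 TPM, and Mt2 had 290 TPM against 4.26 to 34.6 TPM. Of the 22 acute phase genes, 18 were highest in library 5 by TMM-scaled CPM and 20 by TPM, against 18.1% of all 7860 genes by TMM-scaled CPM. Crp, the classic human acute phase gene, was even across libraries, from 364 to 467 TPM, a mean of 416 ± 39.3. Its CV on the CPM scale was 5.09%. Hamp, the iron hormone hepcidin, ranged from 1654 TPM in library 6 to 4846 TPM in library 5. Without library 5 the acute phase share of the other 5 libraries averaged 1.55%, against 2.41% over all 6.

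Several markers of other cells were also highest in this library. Clec4f, a lectin specific to Kupffer cells, had 103 TPM in library 5 against 32.0 to 45.3 TPM, and Cd5l, a secreted macrophage protein, 135 TPM against 27.0 to 47.3 TPM. Marco, a scavenger receptor, had 33.8 TPM against 0.695 to 2.76 TPM, and Lyz2, the lysozyme of phagocytes, 167 TPM against 36.7 to 52.2 TPM. S100a8, a calcium-binding protein of neutrophils, had 26.7 TPM against 0.557 to 4.28 TPM. The neutrophil list without Hp and Lcn2 summed to 0.00722% in library 5 against at most 0.00132% elsewhere. Of its 14 genes, 4 had a mean of at least 1 TPM and 0 a mean of at least 10 CPM. Of 18 markers of sinusoidal endothelium, 13 were highest in library 5 by TMM-scaled CPM, against 18.1% of all genes. Their summed share was 0.0244% there against 0.0157% to 0.0197%. The list of monocytes and dendritic cells was highest in library 2, at 0.0171% against 0.0162% in library 5. Cxcl13, a chemokine for B cells, had 55.4 TPM against 1.97 to 3.78 TPM. Without library 5 the share of Kupffer cells and macrophages averaged 0.0293%. The part of these cells in the acute phase values was not tested.

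Pancreatic enzyme mRNAs had the widest range of the lists, with a share 85.3 times as high in library 5 as in library 6. Ctrb1, a chymotrypsinogen, had 154, 140, 1.85, 641, 872 and 1.37 TPM in libraries 1 to 6. Cela2a, an elastase, had 130, 119, 3.41, 399, 450 and 0.937 TPM, and Pnlip 82.1, 55.1, 1.11, 289, 288 and 0.546 TPM. The order of libraries was thus the same in kind for the 3 genes, with libraries 4 and 5 highest and libraries 3 and 6 lowest. Amy2a5, a pancreatic amylase, had 150 and 153 TPM in libraries 4 and 5 but 1.92 and 3.21 TPM in libraries 1 and 2. Its relatives Amy2a2, Amy2a3 and Amy2a4 were each listed at the same mean of 63.7 TPM. Their CV was 106%, against 150.5% for Amy2a5. How counts were divided among these amylase genes was not tested. Cela1 was still at 59.8 TPM in library 3 and 44.5 TPM in library 6, where the other acinar genes were near 0. Reg2, a secreted protein of exocrine pancreas, had 82.4 TPM in library 5 and 11.4 TPM in library 4, and at most 1.96 TPM in the others. Of the 18 acinar genes with at least 1 CPM, 14 were lowest in library 6 under each of 4 scalings. Of all genes, 11.8% were lowest there by TMM-scaled CPM. TATAAA 40 to 15 bases before the start was found in 7 of 16 acinar promoters in the table (43.8%), Pnlip among them. Whether pancreas tissue was part of the homogenates was not tested.

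The postprandial libraries differed in genes of feeding and fasting. Srebf1, the insulin-driven regulator of lipid synthesis, had 82.9, 75.9, 85.1, 13.5, 8.11 and 15.8 TPM in libraries 1 to 6. Fasn, fatty acid synthase, had 237, 393, 360, 49.6, 59.96 and 84.3 TPM. Thrsp, which promotes lipid synthesis, had 117, 268, 131, 13.3, 17.7 and 14.1 TPM, and Scd1, the stearoyl-CoA desaturase, 1398, 2038, 973, 357, 561 and 620 TPM. For each of these 4 genes the values of libraries 1, 2 and 3 lay above those of libraries 4, 5 and 6. How many of all genes split this way was not counted. The 22 genes of the feeding list took 0.287, 0.391, 0.288, 0.115, 0.130 and 0.156% of TPM. Of its 20 members with at least 1 CPM, 1, 8, 7, 2, 1 and 1 were highest in libraries 1 to 6 by TMM-scaled CPM. The shares of all 7860 genes were 17.0, 19.8, 12.6, 13.6, 18.1 and 18.9%.

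Several PPARalpha targets had the opposite order. Cyp4a14, a fatty acid omega-hydroxylase, had 101, 45.0, 390, 1990, 3460 and 3038 TPM in libraries 1 to 6. Cyp4a10, of the same family, had 183, 109, 430, 1527, 2292 and 2080 TPM, and Ehhadh, the bifunctional enzyme of peroxisomes, 153, 129, 129, 811, 843 and 794 TPM. Cpt1a, the entry step of fatty acids into mitochondria, had 75.5, 76.1, 101, 146, 155 and 175 TPM. Fgf21, a fasting hormone of liver, had 7.01, 6.56, 14.2, 24.99, 51.1 and 28.2 TPM. The 22 genes of the fasting list took 0.449, 0.340, 0.451, 0.890, 1.04 and 1.10% of TPM in libraries 1 to 6. By TMM-scaled CPM 2, 4, 1, 3, 6 and 6 of them were highest in those libraries. The lowest value fell there for 4, 7, 1, 3, 7 and 0 members. Of all 7860 genes, 17.0, 19.8, 12.6, 13.6, 18.1 and 18.9% were highest there, and 16.7, 22.6, 11.2, 13.4, 24.3 and 11.8% lowest. Fasting genes of glucose production went their own way. Pck1, which controls gluconeogenesis, had 944, 654, 608, 1178, 674 and 956 TPM, and G6pc, which releases glucose, was lowest in library 5 with 92.0 TPM and highest in library 2 with 288 TPM. Of 25 genes of fatty acid oxidation and ketogenesis, 20 were highest in library 6 by TMM-scaled CPM and 18 by CPM on library totals, against 18.9% of all genes. Car3, a carbonic anhydrase of liver and fat, had 2235, 3002, 1161, 323, 104 and 402 TPM, while Adipoq, which marks fat cells, had at most 1.01 TPM.

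**Figure D4:**
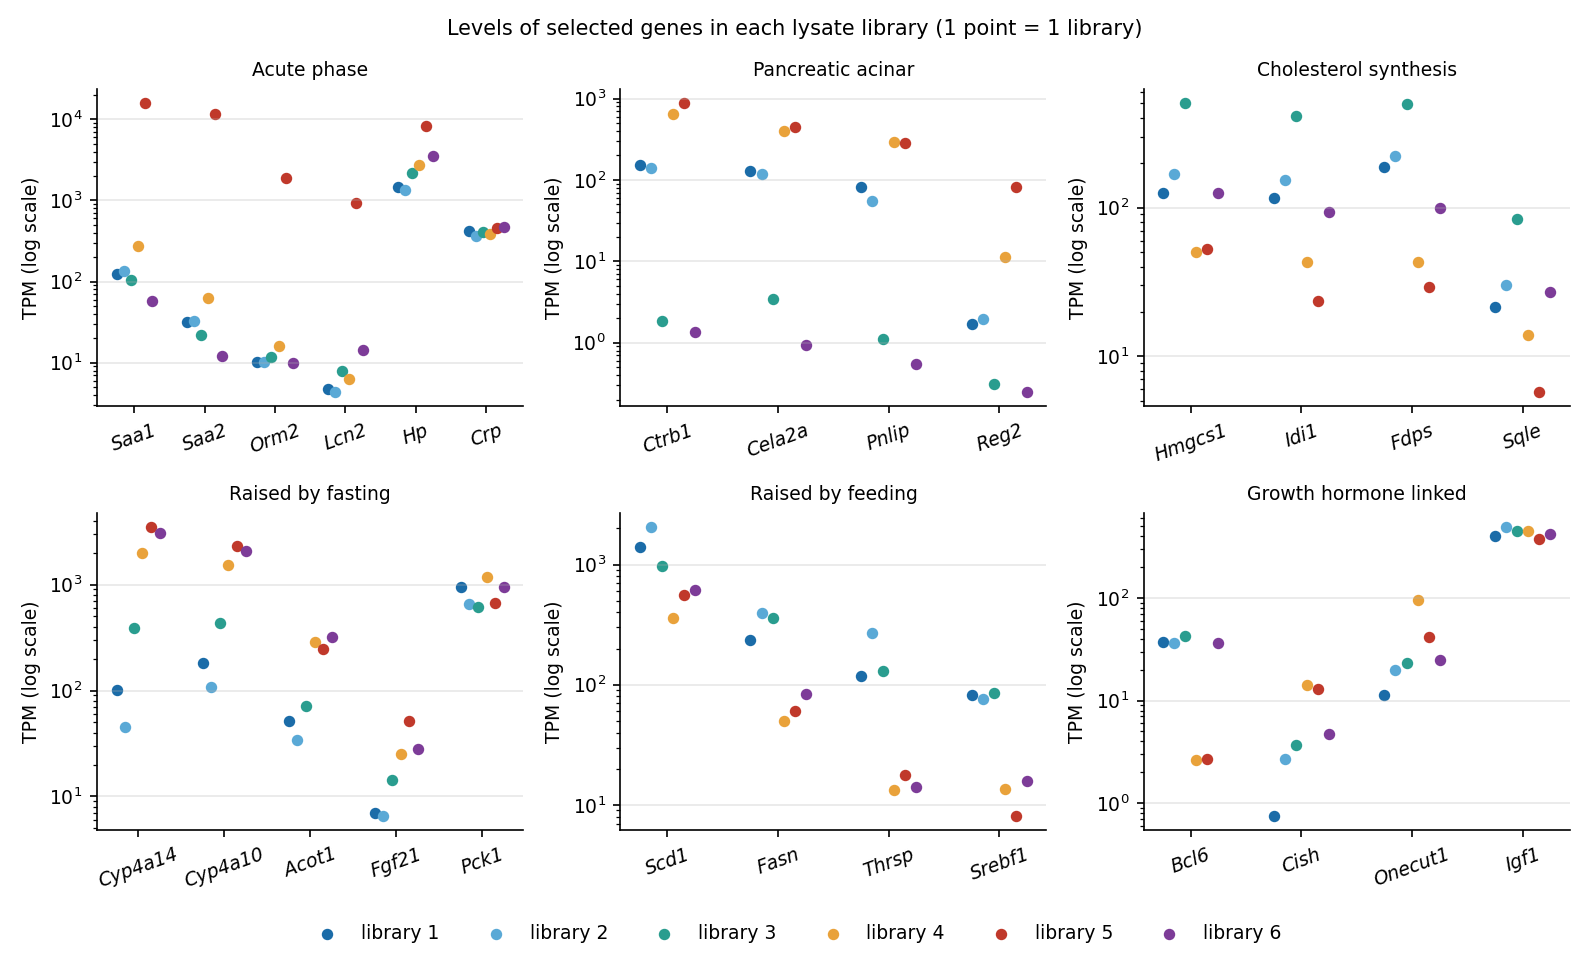
TPM (log scale) of selected genes in each of the 6 lysate libraries, 1 point per library, coloured by library, in 6 panels by role. Library 5 stands alone for Saa1 and Saa2, libraries 4 and 5 lead for Ctrb1, library 3 leads for Hmgcs1, and Bcl6 is low in libraries 4 and 5.

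Sterol synthesis genes followed another order, led by library 3. Hmgcs1 had 124, 167, 501, 50.6, 52.8 and 125 TPM in libraries 1 to 6. Fdps, which makes farnesyl diphosphate, had 188, 221, 496, 43.1, 29.5 and 99.7 TPM, and Idi1 115, 154, 409, 43.2, 23.6 and 93.5 TPM. Sqle, squalene epoxidase, had 83.6 TPM in library 3 and 5.77 TPM in library 5. Msmo1, a later oxidase of the pathway, had 275 and 13.5 TPM in those libraries. Of the 24 genes in the list, 21 were highest in library 3 and 22 lowest in library 5 by TMM-scaled CPM. Of all 7860 genes, 12.6% were highest in library 3 and 24.3% lowest in library 5. A CV above 50% was found for 17 of the 24, against 2.39% of all genes. Ebp, a sterol isomerase, moved least, from 104 to 145 TPM with a CV of 15.7%. Insig1, the sterol sensor that holds back the pathway, had 164, 218, 280, 41.4, 26.1 and 98.6 TPM. The list share was 0.368% in library 3 and 0.0752% in library 5, and averaged 0.134% without library 3, against 0.173% over all 6. Of the 24 genes, 16 had a promoter in the table, under the 80% coverage asked of a list before a motif share was given.

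Some genes linked to growth hormone showed a further pattern. Bcl6, a repressor that growth hormone lowers, had 37.3, 36.7, 43.1, 2.62, 2.66 and 36.8 TPM, so libraries 4 and 5 stood far below the rest. Cish, a feedback inhibitor that growth hormone raises, had 0.750, 2.71, 3.71, 14.1, 13.1 and 4.75 TPM and was highest in those same libraries. Socs2, of the same family, was highest there as well, with 76.2 TPM in library 4 and 54.9 TPM in library 5, against 12.3 to 34.6 TPM. Onecut1, a hepatocyte transcription factor, had 96.6 TPM in library 4 and 41.3 TPM in library 5, against 11.3 to 24.99 TPM. Igf1, the main hormone made under growth hormone, had 378 to 489 TPM, with a CV of 18.6% on the CPM scale. Ghr, the receptor, ranged from 233 TPM in library 5 to 387 TPM in library 2. Of 24 genes in a list of the insulin and growth hormone axis, 15 were lowest in library 1 by TMM-scaled CPM and 12 by TPM. By TMM-scaled CPM 16.7% of all genes were lowest there. Of the 24, 7, 6 and 5 were highest in libraries 2, 4 and 5 by TMM-scaled CPM, against 19.8, 13.6 and 18.1% of all genes. Male-biased genes, MUPs among them, varied between libraries as well. Elovl3, a fatty acid elongase, had 729, 521, 349, 296, 109 and 236 TPM, and Selenbp2, a selenium-binding protein, 757, 622, 398, 397, 61.7 and 97.2 TPM. Mup20, the protein darcin, had 12839, 9128, 8354, 12365, 4230 and 9224 TPM, and Mup17 had 3949 TPM in library 1 and 604 TPM in library 6. Cyp17a1, a steroid hydroxylase not described here as male-biased, had 64.6 TPM in library 5 and 54.0 TPM in library 6 against 4.41 to 8.63 TPM.

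Stress and interferon genes had other orders again. Hspa8, the constitutive heat shock chaperone, had 1091, 682, 855, 1366, 1867 and 1751 TPM, and Hspb1, a small chaperone, 53.3, 25.9, 36.2, 79.0, 109 and 171 TPM. Of 10 heat shock genes with at least 1 CPM, 7 were lowest in library 2 by TMM-scaled CPM, against 22.6% of all genes. Hspa5, the main chaperone of the endoplasmic reticulum, had 460 TPM in library 2 against 710 to 1152 TPM elsewhere. Hsp90b1, another chaperone there, had 255 TPM against 439 to 628 TPM, and Creld2, an isomerase induced by misfolded protein, 37.96 TPM against 119 to 197 TPM. In all, 14 of 24 genes of that list were lowest in library 2 by TMM-scaled CPM, against the same 22.6%. Of its promoters, 17 of the 21 in the table held CCAAT (80.95%). Isg15, a ubiquitin-like interferon target, had 62.2 TPM in library 6 and 14.6 TPM in library 1, and 13 of 18 interferon genes were lowest in library 1 by TMM-scaled CPM, against 16.7% of all genes.

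Clock genes were low to moderate in level. Dbp, a transcription factor that peaks late in the day, had 1.18 to 3.48 TPM, a median of 1.55. Arntl, the clock activator, had 11.8 to 19.9 TPM, and Nr1d1, which represses it, 9.33 TPM in library 5 and 30.98 TPM in library 3. Bhlhe40, a repressor that links clock and metabolism, had 76.2, 86.3, 57.9, 21.6, 40.2 and 34.5 TPM. The whole list of 20 genes ranged only from 0.0253% to 0.0333% of TPM.

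**Figure D5:**
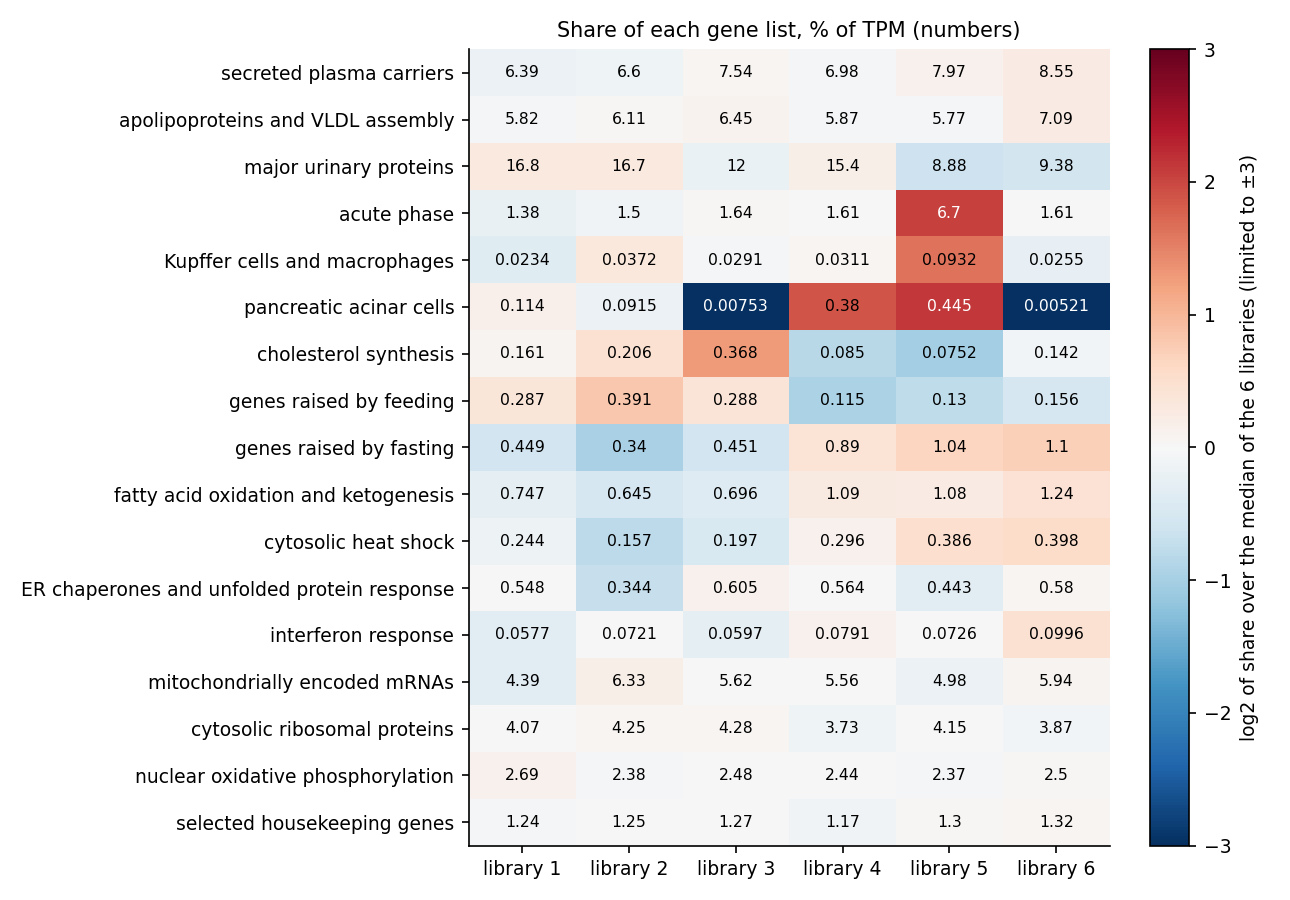
Share of TPM held by 17 gene lists in each of the 6 lysate libraries, with the percentage in each cell and colour for the log2 ratio to the median of the 6 libraries. Acute phase and macrophage shares are raised in library 5, acinar shares are lowest in libraries 3 and 6, cholesterol synthesis leads in library 3, and the housekeeping and ribosomal lists are nearly even.

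The first principal component of log2 CPM held 46.7% of the variance between libraries and the second 30.5%. Library scores on the first were -1.45, -4.78, -23.5, 18.8, 29.4 and -18.5, and on the second -16.6, -20.8, 1.52, 1.16, 11.1 and 23.6. Genes with the highest loading on the first were acinar (Amy2a5, Amy2a1, Ctrb1, Try4 and Cpb1), and those with the lowest were Bcl6 and the sterol genes Msmo1, Fdps and Idi1. On the second, Cyp4a14, Cyp4a10 and Cyp17a1 had the highest loadings, with Mt2 and Lcn2, and acinar genes again the lowest.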

How the data were processed

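Poly(A) RNA of 6 postnuclear liver lysates, 1 mouse each, was analysed. For each gene the authors deposited raw estimated counts and TPM values (per the file headers). Tools listed by the submitters' processing notes, with no role stated, are kallisto 0.44.0, fastp 0.12.4, R 3.5.0 and DESeq2 1.20.0. Neither build nor annotation is stated there. Another 72 value columns stayed out, those of the other fraction among them.

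The 48042 lines were reduced to 1 per identifier, leaving 35498 genes, of which 35471 matched GENCODE M21. Of non-zero counts 36.1% were not whole. CPM used TMM factors (edgeR 4.0.16, R 4.3.3). CV is the SD over the mean of CPM for genes with a mean of at least 10 CPM, and values are mean ± SD over 6 libraries. The common biological CV was 20.0%. Principal components used log2 CPM with a prior count of 2. The spread script was tested on simulated data. Named genes were the 30 of highest mean TPM, the 3 most abundant members of each list, genes of extreme CV or loading, members of the feeding, fasting, clock, sex and strain lists, and cell type markers. Other genes, such as Cxcl13, Reg2 and Creld2, were chosen after their values were seen. Members, lists and rules were chosen with earlier results of these data known. RefSeq promoters matched 8843 of 11480 genes of at least 1 TPM, too few for shares over all expressed genes. Of 54 lists, the one of long noncoding RNAs was not analysed here. Alternatives were other scalings, filters, counts in place of TPM, and leaving out each library.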

Additional observations from a re-analysis of the deposited data

Results flagged for a closer look

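Of 116 genes and lists given by library, 26 had 1 library apart from the other 5 by Dixon's gap rule. Chance meets the rule in about 1 of 20 groups, but many of these genes overlap in function or were named for their spread, so the number is no test. Library 5 was highest for 20 of the 26. These were Saa1 (15694 TPM), Saa2 (11571 TPM), Saa3 (155 TPM), Orm1 (3820 TPM), Orm2 (1876 TPM), Lcn2 (934 TPM), Hp (8196 TPM), Hpx (8118 TPM), Fgl1 (1125 TPM), Mt1 (1240 TPM) and Mt2 (290 TPM). The immune genes Cxcl13 (55.4 TPM), Marco (33.8 TPM), Cd5l (135 TPM), Clec4f (103 TPM), Lyz2 (167 TPM) and S100a8 (26.7 TPM) belong to the same set, as does Reg2 (82.4 TPM). The list shares of acute phase genes (6.70% of TPM) and of Kupffer cells and macrophages (0.0932%) complete it. Mup3 was lowest in library 5, at 7744 TPM.

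Library 3 was highest for the sterol genes Hmgcs1 (501 TPM), Idi1 (409 TPM) and Sqle (83.6 TPM). Library 4 was highest for Onecut1 (96.6 TPM) and for Cyp2c40 (161 TPM), a cytochrome P450 that is higher in female mouse liver. The cause of each of these was not tested.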

How the results depend on the processing

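No paired analysis was possible because the 6 libraries form 1 group and no result comes from a test. With estimated counts in place of TPM, 50% of the total lay in 243 genes, the top 10 genes held 14.6%, the major urinary proteins 7.01% and the share of cholesterol synthesis was 0.329%. Outside the major urinary, acute phase, cholesterol and acinar lists, 41 list shares then moved by more than their SD, and 8 did not. The median CV was 11.5% on library totals, 13.9% on TPM, 14.02% at a mean of at least 1 CPM and 25.7% with no filter. At a mean of at least 1 CPM, 651 genes had a CV above 50% and the share of variance on the first principal component was 37.97%. It was 35.3% with each gene scaled to unit variance. Leaving out 1 library gave a median CV of 10.5% to 11.4%, 42.2% to 57.1% on that component, a median coding length of 921 to 954 bases above 1000 TPM, and 137 to 206 genes above a CV of 50%, the lowest without library 5. Single library values have counting error and 1 mouse behind them.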

Other observations

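Ferritin led the genes of iron and haem. Ftl1, the light chain, had 8264 ± 908 TPM and Fth1, the heavy chain with ferroxidase activity, 3980 ± 377 TPM, while the whole list of 18 genes held 1.72 ± 0.192% of TPM. Alas1, the first enzyme of haem synthesis in liver, ranged from 89.2 TPM in library 2 to 357 TPM in library 4. Antioxidant enzymes held 1.00 ± 0.0596%. Among them Gpx1, a glutathione peroxidase with selenium, had 2485 ± 259 TPM, and Sod1, the cytosolic superoxide dismutase, 1993 ± 86.4 TPM with a CV of 4.58%. Selenop, the selenium carrier of plasma, had 4112 ± 447 TPM.

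Selected housekeeping genes had these spreads. Pgk1, a glycolytic kinase, had a CV of 4.47% and Actb, cytoplasmic actin, 4.73%, against 6.45% for Gapdh, an enzyme of glycolysis. Cd74, the chaperone of class II antigen presentation, was highest in library 2 with 79.9 TPM, and lowest in library 1 with 30.4 TPM.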
